A study of Mus musculus with 3 samples.

Results

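The 8 genes Dapk3, Kcnk12, Lamp1, Timp2, Plekhh3, Macrod1, Otud3 and Ano8 were described in brain myeloid cells of wild type (WT) mice and of a mouse that lacks MHC class II. They are 8 of the 14221 genes that the 3 count tables list, and they were selected on their UMI counts in microglia, being far lower in the class II-deficient mouse than in WT. That fall is therefore a description of how they were chosen, and no test is given for it. The data came from 2 WT libraries (WT 1 and WT 2, labelled adult) and 1 library of the deficient mouse, each from a separate animal as the study's design text describes them. All were CD11b+ CD45+ cells sorted from enzymatically digested brain, a gate that takes microglia together with other myeloid cells. CD4 T cells need MHC class II for their development, and the deficient mouse was labelled as nearly devoid of them. The class II allele, the strain and sex of the mice and the age of the deficient mouse are not stated in the labels. With 1 deficient library, no spread among deficient animals was measured, and genotype and library cannot be told apart.

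Microglia are the resident macrophages of the brain, and the 8 genes act in separate parts of the cell. Lamp1 is a heavily glycosylated protein of the lysosomal membrane, which it covers together with its relative Lamp2. Timp2 is a secreted inhibitor of matrix metalloproteinases. Dapk3 is a serine/threonine kinase of the death-associated protein kinase family that phosphorylates myosin light chain, and Kcnk12 belongs to the tandem-pore-domain potassium channels, where its nearest relative Kcnk13 carries the resting potassium current of microglia. Macrod1 removes ADP-ribose from proteins, Otud3 removes ubiquitin, Ano8 is an anoctamin found where the endoplasmic reticulum meets the plasma membrane, and Plekhh3 is a little-studied protein with PH and FERM domains.

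After filtering, 4340 and 4666 WT cells and 2229 deficient cells remained, with median depths of 3384.5, 3338 and 2816 unique molecular identifiers (UMIs, single captured transcripts). Microglia-like cells numbered 3872, 4344 and 2153. All 12 microglial markers were listed in every library, and their summed level in these cells was 40617, 42780 and 40770 CPM in WT 1, WT 2 and deficient cells (CPM, counts per 1000000 UMIs of the cells summed). Neutrophil-like cells were 6.47%, 2.87% and 0.852% of the cells, and the 12 neutrophil markers summed to 1406, 813 and 254 CPM within microglia-like cells, and their part in the values below was not tested. The markers of T cells summed to between 47.8 and 62.0 CPM in microglia-like cells, and no cluster was named for them. Barcodes shared between libraries numbered 28 between the WT libraries, 17 between WT 1 and the deficient library, and 12 between WT 2 and the deficient library.

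Dapk3 (ENSMUSG00000034974, chr10:81183005-81193197, plus strand, mm10) gave 724 UMIs in WT 1 and 747 UMIs in WT 2 microglia-like cells, but 5 in those of the deficient library. The WT levels were 52.6 and 48.4 CPM and the deficient level 0.801 CPM (exact Poisson 95% interval 0.260 to 1.87). Against the WT mean of 50.5 ± 2.93 CPM (SD, n = 2) the deficient level was 63.1-fold lower, with a range of 27.0 to 194 from the counting error of the deficient library. Intervals here and below cover counting error only. The WT libraries were close to each other and the deficient library stood far below both.

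Kcnk12 (ENSMUSG00000050138, chr17:87745801-87797994, minus strand) was measured at 65.9 and 65.3 CPM for WT and at 2.24 CPM without class II. These levels rest on 908, 1007 and 14 UMIs. The deficient level was 29.3-fold below the WT mean (17.4 to 53.5). As for Dapk3, only traces of the transcript were captured in the deficient library.

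Lamp1 (ENSMUSG00000031447, chr8:13159161-13175338, plus strand) fell less far but from many more counts. The WT levels were 1269 and 1328 CPM and the deficient level 153 CPM (143 to 163), from 17482, 20497 and 954 UMIs. The deficient level was 11.8% of the WT mean of 1299 ± 41.9 CPM (SD, n = 2), or 8.50-fold lower (7.98 to 9.07). Timp2 (ENSMUSG00000017466, chr11:118301069-118355740, minus strand) stood at 411, 416 and 89.5 CPM, from 5668, 6413 and 559 UMIs. Its deficient level was 21.6% of the WT mean, 4.62-fold lower (4.25 to 5.03). UMIs of Lamp1 and Timp2 were thus fewer but still captured, and what share of them came from free RNA was not tested.

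The other 4 genes were thinly captured in WT, and are not listed for the deficient mouse. Plekhh3 (chr11:101162679-101171351, minus strand) stood at 5.52 and 6.61 CPM in WT 1 and WT 2. Macrod1 (chr19:7056810-7198057, plus strand) stood at 6.02 and 6.09 CPM. Otud3 (chr4:138895379-138913945, minus strand) stood at 6.46 and 4.99 CPM, and Ano8 (chr8:71476019-71485963, minus strand) at 5.66 and 5.31 CPM. Genes with UMIs in under 5 cells are nearly missing from the tables (2, 13 and 17 such genes in WT 1, WT 2 and the deficient table), so an unlisted gene is below that limit and is not a measured 0. Set at 5 UMIs, the limit is 0.801 CPM in the deficient microglia-like cells. A gene at that level would stand 7.57-fold below the WT mean for Plekhh3, 7.57-fold for Macrod1, 7.15-fold for Otud3 and 6.85-fold for Ano8. These folds are not firm lower bounds, since the limit counts cells and carries no counting error. The 5 UMIs of Dapk3 had an interval reaching 1.87 CPM. At their WT level, 34.3 to 37.9 UMIs of each would have been captured. Of the 579 genes with 5 to 7 CPM in WT microglia-like cells, 6 (1.04%) were not listed by the deficient table. The 4 genes described here are among those 6.

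**Figure D1:**
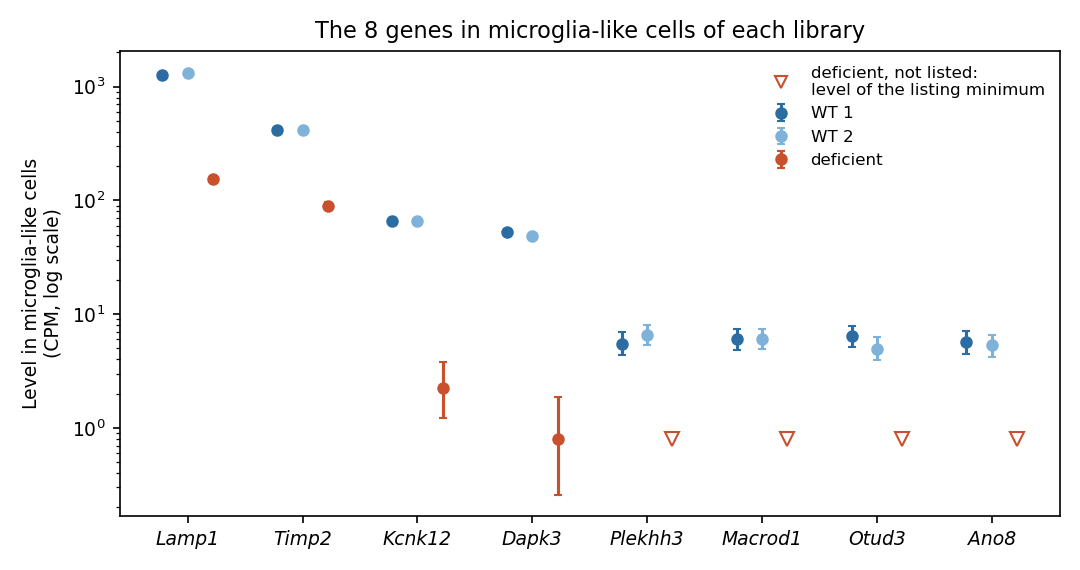
Level of each of the 8 genes in microglia-like cells (y axis, CPM on a log scale) in WT 1, WT 2 and the deficient library; points are summed UMIs with exact Poisson 95% intervals, and open triangles mark genes that the deficient table does not list, drawn at the level of 5 UMIs. The WT points of each gene lie close together, and the deficient value is below both for every gene, from 153 against 1269 and 1328 CPM for Lamp1 to 0.801 against 52.6 and 48.4 CPM for Dapk3.

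Falls of this size were rare among the genes captured at a similar level. Of 6134 genes with at least 20 CPM in WT microglia-like cells, 58 (0.946%) stood at or below 20% of the WT mean in the deficient library, and 1 of them was not listed there. Dapk3, Kcnk12 and Lamp1 are among these, and Timp2, at 21.6%, lies just outside. The log2 ratios of CPM plus 1 were -4.84 for Dapk3, -4.36 for Kcnk12, -3.08 for Lamp1 and -2.20 for Timp2, while the ratio of WT 2 to WT 1 ranged from -0.12 to 0.07 for the same genes. Over the 8 genes the median was -2.82, with unlisted genes at 0, and -2.92 with unlisted genes at their limit and no addition to the CPM.

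Lamp1 and Timp2 were captured often enough to ask how the loss was spread over cells. In WT, 96.4% and 96.8% of microglia-like cells held a Lamp1 UMI, and a cell had a median of 4 of them. In the deficient library 34.4% of cells held one (exact Clopper-Pearson 95% interval 32.4 to 36.5), with a median of 0 and at most 4 in a cell. If every deficient cell had the library's single Lamp1 rate, 35.2% of cells would hold a UMI at their depths, close to the measured share. Cells with 2 or more Lamp1 UMIs were 87.7% and 88.2% of WT cells and 7.90% of deficient cells.

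Timp2 followed the same form. It was seen in 70.2% and 71.1% of WT cells and in 22.6% of deficient cells (20.8 to 24.4), where one common rate gives 22.6%. The variance of the UMIs per cell was 1.02 times the mean for Timp2 and 1.11 times for Lamp1 in the deficient library, where equal cells of equal depth give 1. No deficient cell held more than 3 Timp2 UMIs, against up to 10 and 13 in WT. The deficient cells therefore showed no group with WT-like amounts of either transcript beside a group without.

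**Figure D2:**
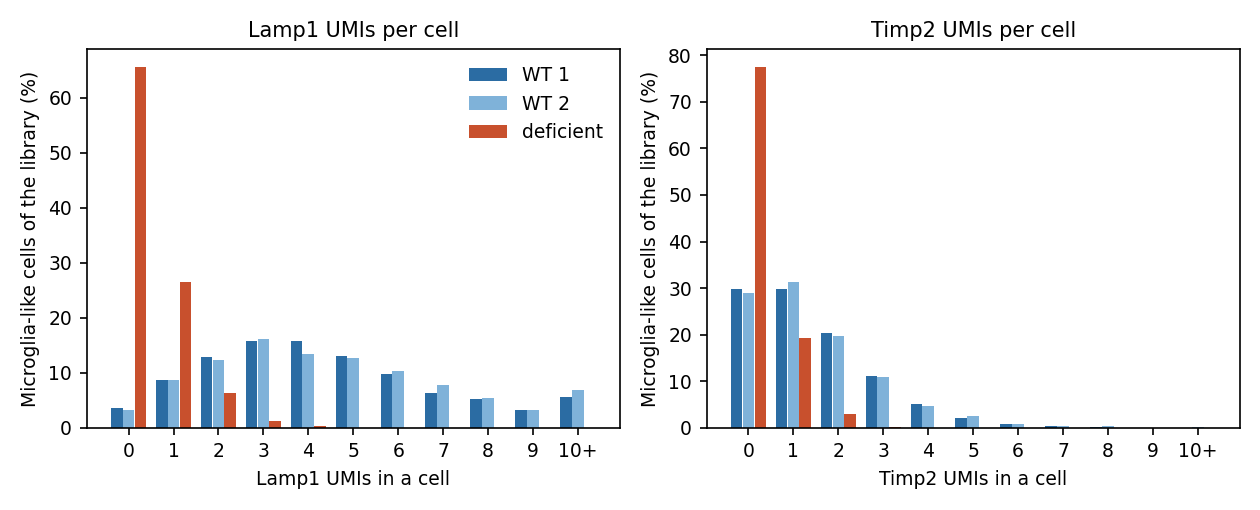
Share of microglia-like cells of each library (y axis, %) by the number of Lamp1 (left) or Timp2 (right) UMIs in the cell (x axis, 10 or more pooled), at the depth as deposited. In the deficient library the whole Lamp1 distribution is moved to 0 and 1 UMIs (65.6% and 26.5% of cells), with no second peak at the WT median of 4.

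Cells were thinned to 1000 UMIs each so that depth was equal. Lamp1 was then seen in 71.1% and 73.5% of WT cells and in 14.7% of deficient cells. Timp2 was seen in 31.2% and 32.7% against 9.10%, Kcnk12 in 6.92% and 6.06% against 0.190%, and Dapk3 in 5.53% and 4.80% against 0.0948%. The thinned deficient shares of Kcnk12 and Dapk3 rest on 4 and 2 cells, so they say only that very few cells held a UMI. Thinning left out 57 and 52 WT cells and 44 deficient cells below 1000 UMIs. Without thinning, the shares for Dapk3 were 16.6%, 15.8% and 0.232%, and those for Kcnk12 19.9%, 19.4% and 0.604%. At the depth as deposited, 1.50% and 1.47% of WT cells held no UMI of Dapk3, Kcnk12, Lamp1 or Timp2, against 51.7% of deficient cells.

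The fall was also looked for in each state of the microglia. Re-clustering without the 8 genes gave 6 sub-clusters. Sub-cluster 0, led by Rnaset2b, held most WT cells and 67 deficient cells, whereas sub-cluster 1, led by the chemokine receptor gene Ccr6, held 1729 deficient cells and 82 and 213 WT cells. WT cells of sub-cluster 1 had 1498 and 1394 CPM of Lamp1, and deficient cells of the same sub-cluster had 162 CPM (151 to 174). In sub-cluster 0 the Lamp1 levels were 1343 and 1394 CPM for WT and 124 CPM for deficient cells (80.5 to 184). Within both sub-clusters Lamp1 was high in the WT cells and low in the deficient cells.

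In sub-cluster 2, led by Fam71a, Ccrl2 and Ccl4, Lamp1 stood at 1260, 1252 and 129 CPM. Sub-cluster 4 is led by immediate early genes such as Klf4, Fosb and Atf3, and had 972, 1019 and 100.2 CPM. In sub-cluster 5, led by interferon-stimulated genes such as Ifit3 and Rtp4, the levels were 1258, 1426 and 133 CPM. Over the 6 sub-clusters the deficient Lamp1 level was 2.87% to 11.2% of the WT mean, and the lowest value, in sub-cluster 3, rests on 3 UMIs from 26 cells. Timp2 ranged from 11.2% to 24.3% of WT. Kcnk12 was seen in 4 of these sub-clusters of the deficient library with 9 or fewer UMIs each, and Dapk3 in 2. The Kcnk12 level ranged from 0% to 22.6% of WT, and the highest value, 14.9 CPM in sub-cluster 0 (3.08 to 43.6), rests on 3 UMIs.

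Other divisions of the deficient microglia made little difference. With the cells of each library split by depth into 3 equal groups, Lamp1 stood at 135, 155 and 160 CPM from the shallowest to the deepest, which is 10.7% to 12.3% of the WT group of the same rank. The groups do not match in depth: the median of the shallowest was 2557 and 2531 UMIs in WT and 2157 in the deficient library. Timp2 stood at 80.3, 90.3 and 93.7 CPM. Deficient cells with a Ccr6 UMI (665 cells) had 156 CPM of Lamp1 and those without had 151 CPM, and Timp2 stood at 90.3 and 89.1 CPM. The 27 deficient cells whose barcode another library also holds had 153 CPM of Lamp1 (79.3 to 268, from 12 UMIs). The remaining cells had 153 CPM.

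Cells outside the microglia were few in the deficient library, and their values are given as counts allow. Lamp1 in border-associated macrophage-like cells, the macrophages of the meninges and vessels (78 and 69 WT cells, 16 deficient cells), stood at 961, 1177 and 127 CPM (54.9 to 251 for the deficient library). Cluster 11, which stayed unnamed and is led by Gas2l3, Cst7, Fam20c and Lpl (31, 50 and 23 cells), had 1447, 1860 and 124 CPM (61.7 to 221). In non-classical monocyte-like cells (10, 12 and 14 cells) Lamp1 stood at 624, 829 and 134 CPM (43.5 to 313). Lamp1 was lower in the deficient library in each of these classes, and no deficient interval reached the WT values.

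In neutrophil-like cells (281, 134 and 19 cells), the short-lived granulocytes of the blood, Lamp1 had a lower WT level of 223 and 234 CPM and stood at 60.0 CPM in the deficient library (12.4 to 175, from 3 UMIs). Classical monocyte-like cells (43, 30 and 4 cells) had 1334, 973 and 116 CPM (23.9 to 339, also from 3 UMIs). Timp2 in border-associated macrophage-like cells stood at 260, 303 and 31.8 CPM (3.85 to 115). In cluster 11 it stood at 494, 644 and 112 CPM (53.9 to 207). Neutrophil-like cells had 199, 174 and 60.0 CPM of Timp2, where the deficient interval of 12.4 to 175 touched WT 2. Dapk3 and Kcnk12 gave 0 UMIs in every deficient class outside the microglia. In cluster 11 the upper limit for Dapk3 was 41.4 CPM, below the WT levels of 51.1 and 87.2 CPM, and in the other classes the upper limits of both genes reached the WT levels.

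**Figure D3:**
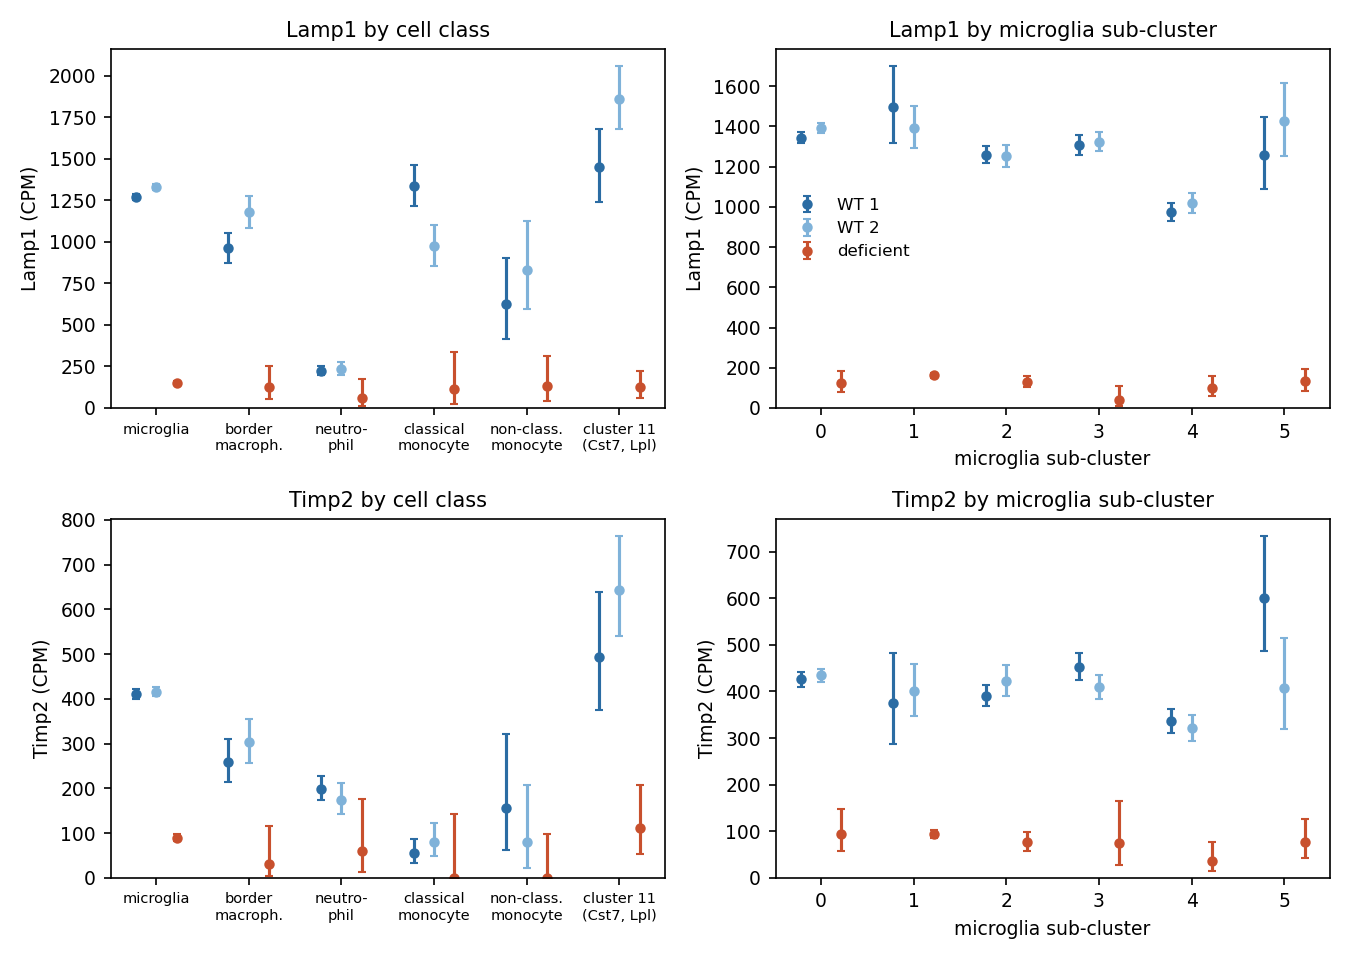
Lamp1 (top) and Timp2 (bottom) in CPM (y axis, linear from 0) by cell class (left) and by microglia sub-cluster (right), for WT 1, WT 2 and the deficient library, with exact Poisson 95% intervals. The deficient Lamp1 value is below both WT values in all 6 classes and all 6 sub-clusters; for Timp2 the intervals overlap in neutrophil-like cells and in both monocyte-like classes, where the deficient library had 3 or fewer UMIs.

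The relatives of the 8 genes were listed by family, with earlier results of these data known, and were tested with edgeR's quasi-likelihood test on UMIs summed over the microglia-like cells of each library. The test covered 11845 genes and called 7.54% of them at an adjusted p under 0.05 (Benjamini-Hochberg), 6.1% lower and 1.44% higher in the deficient library. The spread behind its p-values comes from the WT pair alone, with 1 residual degree of freedom per gene. edgeR pools that spread over genes, so the p-values rest on a shared value and measure no spread among deficient animals. Of 41 relatives in 8 families, 23 could be tested: 0 rose, 4 (17.4%) fell and 19 did not pass. At an unadjusted p under 0.05, 1 was higher (Ano7) and 7 were lower (the 4 called, Ano10, Yod1 and Kcnk13), and DESeq2 and voom called 0 higher. The median log2 fold change was -0.20 for the relatives and 0.00 for all genes tested. The 4 that fell are OTU deubiquitinases, and none of the tested relatives of Dapk3, Kcnk12, Lamp1, Plekhh3, Macrod1 or Ano8 passed.

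Lamp2, the other main protein of the lysosomal membrane, stood at 570.1 and 600.4 CPM in the WT pair and at 532 CPM in deficient cells. Its log2 fold change was -0.14 (SE 0.10, edgeR adjusted p = 0.525). Cd68, the macrophage member of the LAMP family, stood at 747, 781 and 892 CPM (0.22, adjusted p = 0.285, edgeR). Neither of the tested relatives of Lamp1 passed.

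Dapk1, a larger kinase of the Dapk3 family, stood at 8.66, 7.36 and 6.91 CPM (log2 fold change -0.21, SE 0.24, edgeR adjusted p = 0.706). At this depth a change of about its SE could not be seen. Stk17b, a further kinase of the family, stood at 55.2, 55.8 and 50.3 CPM (-0.14, adjusted p = 0.489, edgeR). Kcnk13, the potassium channel nearest to Kcnk12, stood at 118, 125 and 106 CPM, a log2 fold change of -0.20 (SE 0.09, edgeR adjusted p = 0.258). Kcnk6, another channel of the family, had 45.3, 56.4 and 56.1 CPM (0.14, adjusted p = 0.630, edgeR).

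Timp2 had no tested relative. Timp1 and Timp3 are listed by none of the tables and Timp4 by that of WT 1 alone, so no value can be given for Timp3 in these cells. Dapk2, Lamp3, Plekhh1 and Macrod2 are listed by both WT tables and not by the deficient table, and no level is drawn for them there. The same holds for 1290 of the 14221 genes that any table lists. Of the anoctamins, Ano6, the lipid scramblase of many blood and immune cells, stood at 44.7, 42.9 and 46.9 CPM (0.10, adjusted p = 0.677, edgeR). Ano10 stood at 22.9, 22.4 and 16.1 CPM (-0.49, adjusted p = 0.0635, edgeR), and passed when the counts were scaled by library totals only (adjusted p = 0.0339). Ano7 had 2.60, 3.06 and 5.46 CPM (0.94, adjusted p = 0.113, edgeR). Plekhh2 stood at 5.12, 4.95 and 3.37 CPM (-0.58, adjusted p = 0.360) and Oard1, which like Macrod1 removes ADP-ribose, at 54.2, 49.9 and 59.0 CPM (0.18, adjusted p = 0.381), neither passing in edgeR.

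In the OTU family of Otud3, enzymes that cut ubiquitin chains, 4 of 12 tested members fell. Otud1 fell from 103 and 90.7 CPM to 9.48 CPM, a log2 fold change of -3.35 (SE 0.15, edgeR adjusted p = 6.36e-08). Otulin, which cuts linear ubiquitin chains, fell from 41.7 and 38.2 CPM to 9.80 CPM (-2.02, SE 0.16, edgeR adjusted p = 5.10e-06). Otud5 fell from 45.4 and 44.9 CPM to 18.5 CPM (-1.29, adjusted p = 3.33e-05, edgeR). Tnfaip3, the ubiquitin-editing brake on NF-kB signalling known as A20, fell from 153 and 111 CPM to 60.1 CPM (-1.14, adjusted p = 0.000843 with edgeR), and did not pass in DESeq2 (adjusted p = 0.0796). The other 8 (Otud4, Otud6b, Otud7b, Otub1, Otub2, Yod1, Vcpip1 and Zranb1) lay between -0.40 and 0.19 and did not pass.

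**Figure D4:**
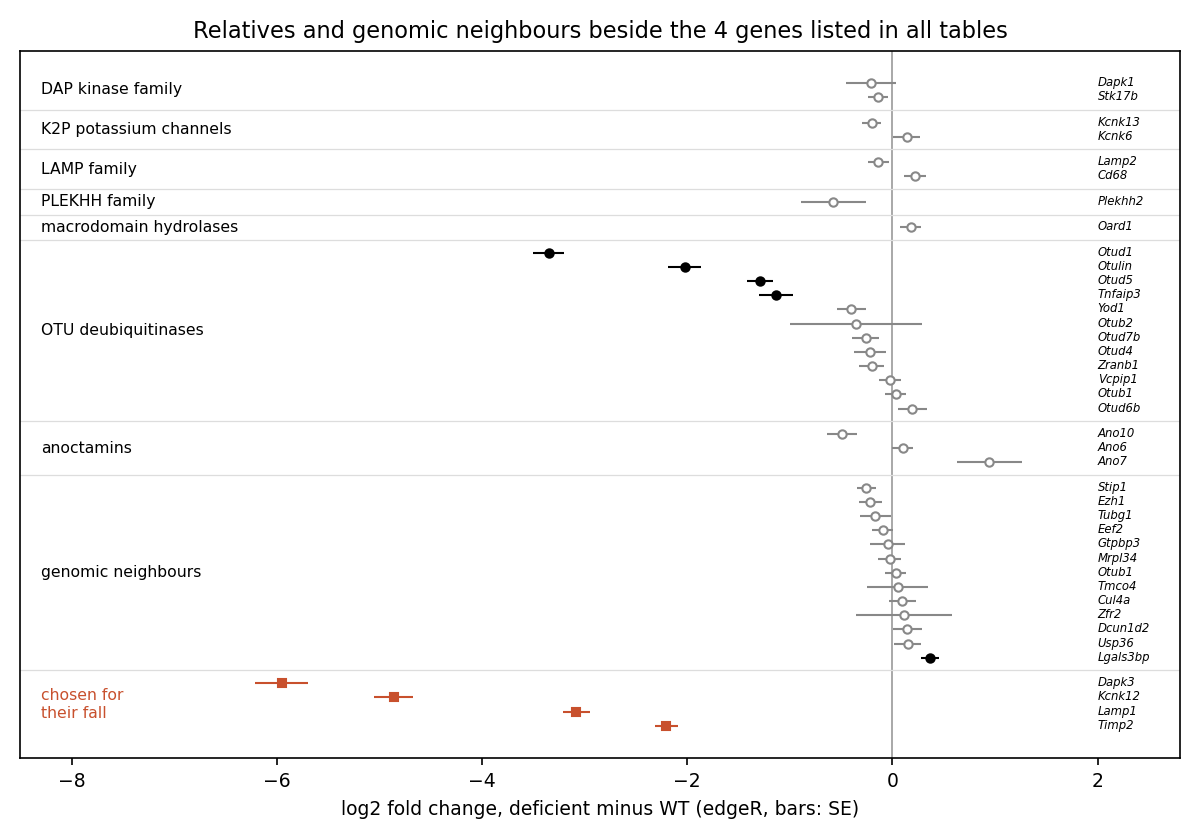
Log2 fold change, deficient minus WT, in microglia-like cells (x axis, edgeR; bars are standard errors) for each tested relative by family, for 13 of the 15 nearest tested genes beside the 8 genes, and for the 4 members that all tables list (squares, shown for scale and chosen for their fall). Filled points passed an adjusted p under 0.05; apart from 4 OTU deubiquitinases that fell and the neighbour Lgals3bp that rose, the relatives and neighbours drawn did not pass.

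Short coding stretches show where members and relatives are alike and where they are not. The final 60 coding bases, stop codon included, are given 5′ to 3′ from GENCODE M21 transcripts on the mm10 build, with each CG dinucleotide in capitals.
Dapk3: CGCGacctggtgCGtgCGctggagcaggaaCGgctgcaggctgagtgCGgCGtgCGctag
Dapk1: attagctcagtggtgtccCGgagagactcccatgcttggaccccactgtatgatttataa
Kcnk12: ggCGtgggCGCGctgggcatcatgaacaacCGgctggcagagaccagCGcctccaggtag
Kcnk13: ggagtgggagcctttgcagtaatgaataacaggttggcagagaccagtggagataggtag
Lamp1: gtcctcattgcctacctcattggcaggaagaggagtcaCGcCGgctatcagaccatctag
Lamp2: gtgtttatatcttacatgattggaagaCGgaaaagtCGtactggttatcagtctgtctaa
Timp2: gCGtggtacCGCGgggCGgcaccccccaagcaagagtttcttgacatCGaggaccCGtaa
Timp3: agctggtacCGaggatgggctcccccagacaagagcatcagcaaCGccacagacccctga
Kcnk12 and Kcnk13 match at 42 of the 60 positions, but Kcnk12 holds 5 CG dinucleotides there and Kcnk13 holds 0. Lamp1 and Lamp2 match at 37 of 60, with a GC content of 55.0% and 36.7%. Dapk3 and Dapk1 match at only 14 of 60, the fewest of these pairs, so their ends are hardly alike. Dapk3 has 8 CG dinucleotides there and Dapk1 has 1. Timp2 and Timp3 match at 31 of 60, with 6 and 2 CG dinucleotides and a nearly equal GC content of 63.3% and 61.7%.

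Over whole coding sequences, the median GC content of the 8 genes was 63.5%, against 52.6% over the 10947 tested genes with a protein-coding transcript and 51.9% over the tested relatives. Kcnk12 (69.9%), Plekhh3 (64.8%), Macrod1 (63.8%), Dapk3 (63.7%) and Ano8 (63.4%) lie above the 90th percentile of 60.2%. Timp2 (57.1%) and Otud3 (57.1%) lie above the median, and Lamp1 (50.5%) below it. For each gene the protein-coding transcript with the longest coding sequence was taken. 3′ libraries are read near the transcript end, and whether reads came from this annotated end was not tested. In the last 300 bases of that transcript, all 8 genes lie above the median of 42.7%. Timp2 (46.7%) and Lamp1 (47.3%) lie nearest to it. Over the 53 other genes at or below 20% of WT (at least 20 CPM in WT, with a protein-coding transcript), the median there was 44.0%. Transcript length set them apart less, with a median of 2100.5 bases against 2918.

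Calls over all other genes were set beside this. The tested genes were split by coding GC content into 10 equal bins. In the highest bin (60.2% to 75.6%), 151 of 1093 genes (13.8%) were called lower in the deficient library, against 4.11% to 7.21% in the other bins. Genes with a log2 fold change below -2 numbered 51 in that bin and 2 to 15 in each of the others. The share called higher was 1.74% there and 0.823% to 2.01% in the others, so this bin stood apart in genes called lower. GC content is a property that the choice of the 8 genes did not use, and its part in their fall was not tested.

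**Figure D5:**
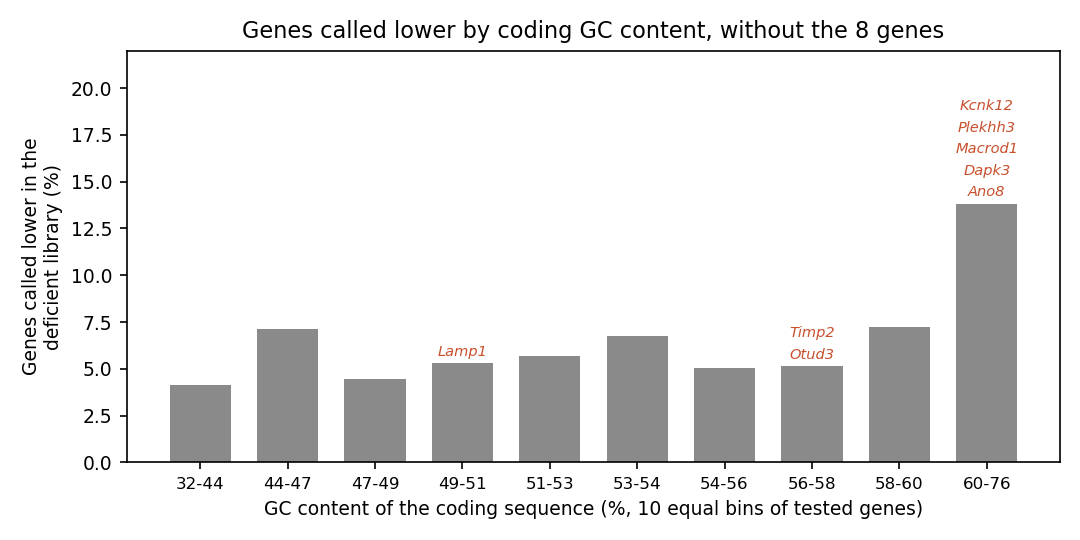
Share of tested genes called lower in the deficient library (y axis, %, edgeR adjusted p under 0.05) by 10 equal bins of coding GC content (x axis, %), with the 8 genes left out of the bars and their names set above the bin they belong to. The highest bin has 13.8% of genes called lower and holds Dapk3, Kcnk12, Plekhh3, Macrod1 and Ano8, while Lamp1 lies in a bin with 5.30%.

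Promoters were read for motifs because Lamp1 is a classical target of TFEB, the transcription factor of lysosomal genes that binds the letters CACGTG. The window of Lamp1 (250 bases before to 50 after the start, chr8:13158911-13159210, plus strand, RefSeq on GRCm38.p6) holds 4 CACGTG matches, shown in capitals.
Lamp1: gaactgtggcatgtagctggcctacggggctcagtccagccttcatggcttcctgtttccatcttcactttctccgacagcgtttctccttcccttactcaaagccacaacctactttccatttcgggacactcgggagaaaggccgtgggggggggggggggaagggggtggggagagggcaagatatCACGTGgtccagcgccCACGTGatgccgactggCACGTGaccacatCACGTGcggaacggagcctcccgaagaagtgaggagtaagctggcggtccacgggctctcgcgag
CACGTG reads the same on both strands. It occurs in 7.15% of the 32851 windows, and 8 windows (0.0244%) hold 4 or more. The window of Lamp2 holds 0, and of the 7 members with a window, 3 hold at least 1 (Lamp1, Otud3 and Macrod1). GGGCGG, searched on both strands, was in a window of 6 of these 7 members and in 35.7% of all windows. TGACGTCA was in 1 member, Dapk3, and in 1.79% of windows. A member was counted if any of its windows matched, and the 7 members have 11 windows. The shares over all windows count single windows, so they are not like for like. These are matches of letters only.

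Genes of the pathways in which the members act were counted in the same edgeR fit. DESeq2 called 7 pathway genes, fewer than edgeR did, and not every call it lost is marked below. Of 186 genes in 7 lists, 164 could be tested: 1 rose, 12 (7.32%, near the 6.1% of all genes) fell and 151 missed the threshold, and their log2 fold changes had a median of -0.07. Among 39 tested lysosomal membrane proteins, 1 fell. Laptm5, a lysosomal protein of blood cells, stood at 2604, 2820 and 2986 CPM (0.14, adjusted p = 0.608, edgeR) and Laptm4a at 615, 688 and 743 CPM (0.19, adjusted p = 0.397, edgeR). The gene that fell was Sidt2, at 23.4, 24.8 and 14.6 CPM (-0.72, adjusted p = 0.00881, edgeR), which DESeq2 did not call (adjusted p = 0.267).

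Of 30 genes of the TFEB family and autophagy, 4 fell. Tfeb itself fell from 37.7 and 35.9 CPM to 26.7 CPM (-0.46, adjusted p = 0.0434, edgeR). Flcn, which holds TFEB in the cytoplasm, fell by 0.42 on the log2 scale, and Sqstm1, the autophagy receptor p62, fell by 0.51. Map1lc3a, which coats autophagosomes, fell from 112 and 107 CPM to 64.7 CPM (-0.76, adjusted p = 0.000191, edgeR). The most highly captured members Gabarap, Vamp8 and Gabarapl2 had log2 fold changes of 0.07, 0.02 and 0.05 and did not pass.

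Of 15 tested metalloproteinases and their partners, 1 fell. Adamts1, a secreted protease, stood at 222, 135 and 98.8 CPM (-0.85, adjusted p = 0.0381, edgeR), a call lost in 4 alternatives (adjusted p between 0.0631 and 0.9997). Mmp8, the neutrophil collagenase and one of the neutrophil markers above, stood at 3.97, 1.56 and 0.161 CPM and did not pass (adjusted p = 0.0618, edgeR). It passed by library totals only (adjusted p = 0.00608) and over all retained cells (0.0422). Bsg, an inducer of metalloproteinases, and Itgb1, an integrin chain, had log2 fold changes of 0.14 and -0.09 and did not pass.

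Of 20 tested genes of myosin light chain and contractility, the pathway of Dapk3, 1 fell. Rhob, a small GTPase induced early after stimulation, fell from 1883 and 1562 CPM to 628 CPM (-1.46, SE 0.14, edgeR adjusted p = 2.67e-05). Rhoa stood at 599, 588 and 552 CPM (-0.10) and Myl6, a myosin light chain, at 322, 340 and 366 CPM (0.15), and neither passed.

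Among 19 tested genes of ADP-ribosylation, the pathway of Macrod1, Parp12 fell from 34.6 and 33.9 CPM to 9.32 CPM (-1.88, SE 0.16, edgeR adjusted p = 7.58e-06). Parp1, the main nuclear ADP-ribose polymerase, was called higher at 59.9, 62.1 and 76.5 CPM (0.32, adjusted p = 0.0491, edgeR), and 5 alternatives did not call it (adjusted p between 0.0574 and 0.700). Hpf1, the partner of Parp1, stood at 63.0, 70.9 and 62.7 CPM and did not pass. Of 19 tested genes of RIG-I and MAVS signalling, a pathway of ubiquitin switches, 1 fell. Rela, the p65 subunit of NF-kB, fell from 72.4 and 66.9 CPM to 43.1 CPM (-0.69, adjusted p = 0.000924, edgeR). Tmem173, which encodes STING, stood at 292, 317 and 374 CPM (0.30, adjusted p = 0.111, edgeR), and passed by library totals only (0.0495) and after thinning (0.0444). Nfkb1 and Irf3 had log2 fold changes of -0.08 and -0.13 and did not pass, nor did Ikbke, which had under 1 CPM in each library.

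Of 22 tested ion channel genes of microglia, 3 fell. Orai1, the pore of store-operated calcium entry, fell from 251 and 262 CPM to 84.5 CPM (-1.60, SE 0.10, edgeR adjusted p = 8.54e-07). Stim2, a calcium sensor of the same process, fell from 18.0 and 16.3 CPM to 7.23 CPM (-1.24, adjusted p = 0.00133, edgeR), and Lrrc8d, a volume-regulated anion channel subunit, from 33.4 and 29.4 CPM to 21.2 CPM (-0.57, adjusted p = 0.0311, edgeR). Clic1 and the proton channel gene Hvcn1 had log2 fold changes of 0.08 and -0.02 and did not pass.

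The tested genes beside the 8 on the chromosome were counted in the same fit. Of 15 nearest tested genes within 200 kb, 0 fell and 1 rose, where 6.1% and 1.44% of all tested genes did, so the count of falls is near that of any 15 genes; 14 missed the threshold, and their log2 fold changes had a median of -0.03. At an unadjusted p under 0.05, 1 was lower (Stip1, beside Macrod1), and DESeq2 and voom called 0 lower. Eef2, an elongation factor gene 506 bases from Dapk3, stood at 571, 548 and 524 CPM (-0.09, adjusted p = 0.685, edgeR). Otub1, 144 bases from Macrod1, stood at 51.9, 57.5 and 55.9 CPM (0.03, adjusted p = 0.915, edgeR). Cul4a, 11220 bases from Lamp1, had 26.4, 24.2 and 27.0 CPM (0.09, adjusted p = 0.766, edgeR). Lgals3bp, 37010 bases from Timp2, was the gene that rose, from 72.4 and 74.8 CPM to 95.1 CPM (0.37, adjusted p = 0.0203 with edgeR), and did not pass in DESeq2 (adjusted p = 0.379).

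Some of the 8 overlap other genes, and whether the authors' counting used strand is not stated in the labels. Lamp1 shares 3317 bases with Grtp1 on the opposite strand, and Ano8 shares 80 bases with Dda1, and all tables list both partners. Timp2 shares 10141 bases of its body with Cep295nl on the same strand, which the WT tables list and the deficient table does not. Dapk3, Plekhh3 and Macrod1 also overlap genes on the opposite strand, of which only Cntnap1, beside Plekhh3, is listed, by WT 2 alone. Overlaps were taken over whole gene bodies, introns included. Reads that fall in a shared stretch cannot be assigned with certainty, and how many did was not tested.

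The genes most like the members were taken as the 10 with the lowest log2 fold change among genes with at least 20 CPM in WT that passed the test. Left out were the members, markers of classes other than microglia, sex-linked genes, and genes with Gm-number or Rik names. They were Klf2 (-5.85), Rnaset2b (-4.42), Jund (-4.14), Cebpa (-4.09), Cited2 (-3.72), Plk3 (-3.63), Siah2 (-3.56), Mlycd (-3.39), Otud1 (-3.35) and Yrdc (-3.22), each over the 3 libraries. Klf2, a transcription factor gene of myeloid and endothelial quiescence, stood at 1571, 1104 and 23.1 CPM. Cebpa, which encodes a transcription factor of myeloid cells, stood at 550, 457 and 29.6 CPM. Rnaset2b, which encodes a lysosomal ribonuclease, stood at 259.8, 243 and 11.7 CPM. It has a near-identical copy, Rnaset2a, that reads could be split with. Rnaset2a was among the genes leading sub-cluster 1, which held 1729 deficient cells and 82 and 213 WT cells. Whether the fall of Rnaset2b reflects such splitting was not tested. Of these 10 genes, 7 lie above the 90th percentile of coding GC content and 4 have a single exon. The median over all tested genes with a protein-coding transcript was 9 exons. Over the 53 other genes with a steep fall and a protein-coding transcript, the median coding GC content was 58.9%.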

How the data were processed

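Each library has 1 deposited table of UMI counts, which the authors left unnormalized. Per the labels' protocols, the 10x Genomics single-cell 3′ kit was used. The submitters' processing notes name Cell Ranger 3.0, Seurat 2.2 and mm10; no source used here states the annotation, filters or strand setting. There were 4589, 4815 and 2278 barcodes with 16230216, 17293844 and 6616662 UMIs for WT 1, WT 2 and the deficient library.

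Cells needed 500 UMIs, 200 genes and a mitochondrial share of 10% or less. Scrublet marked 0, 1 and 28 cells as doublets, which were removed; at so low a rate it is taken to have failed, and doublets can remain. Leiden clustering (scanpy 1.11.5, leidenalg 0.10.2; 2000 variable genes, 30 components, resolution 1, and 0.5 within microglia) left out the 8 genes, MHC class II genes and sex-linked genes. Classes were named from marker lists; that a class other than microglia needs one of its markers among the cluster's 10 leading genes was added after the clusters were seen.

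UMIs were summed per class and library. The 11979 genes listed in every table were filtered with filterByExpr and fitted in edgeR 4.0.16 (quasi-likelihood, TMM, Benjamini-Hochberg at 0.05; R 4.3.3), after the step was tested on simulated data. DESeq2 1.42.0 and limma 3.58.1 (voom) were alternatives. An unlisted gene was given a limit of 5 UMIs. Positions and sequences are from GENCODE M21 and, for promoters, RefSeq. The members and all lists were chosen with earlier results of these data known. Named genes were all members, listed relatives, the nearest tested neighbours, the 3 most highly captured and the 1 most changed gene of each pathway list, and the 10 genes most like the members; other pathway genes that passed were named after their values were seen. Not every gene taken by the rule is reported here.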

Additional observations from a re-analysis of the deposited data

How the results depend on the processing

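Under DESeq2, 482 genes were called in place of 893, with 7 pathway genes in place of 13 and 0 neighbours in place of 1 (edgeR); the cause was not tested. The other 7 alternatives to the test, covering normalisation, filters, voom, all retained cells, stricter cells and thinning, gave 776 to 1185 calls. The members' median log2 ratio of -2.82 became -5.81 with 0.1 CPM added, -1.39 with 10 CPM added and -2.77 after thinning, and -2.88 to -2.86 without one WT library. The first pair of values follows from the addition, since 4 members are unlisted in the deficient library; for the others the cause was not tested. Shares of deficient cells with a UMI rose with depth: Lamp1 14.7% at 1000 UMIs, 26.4% at 2000 and 34.4% unthinned, Timp2 9.10%, 15.7% and 22.6%, and Kcnk12 0.190% and 0.604% unthinned. Of 70 single genes, none changed direction in the alternatives run. Without a WT library no test was possible, being 1 library against 1, so counts of calls have no value there. No paired analysis was possible because the single deficient library shares fewer than 2 replicate numbers with WT. The number of deficient animals, 1, and the thin counts outside microglia limit what can be compared.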
